A study of Mus musculus with 6 samples.

Results

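Chemokines are small secreted proteins that draw leukocytes along a concentration gradient through receptors of the G protein-coupled kind. In the immune system the inflammatory members recruit T cells, monocytes and dendritic cells to sites of activation, and regulatory T (Treg) cells both follow chemokines and make some of them. The genes described here are 10 chemokine ligands, chosen by symbol from the 24421 genes of an RNA-seq count matrix of splenic Treg cells: the inflammatory CC ligands Ccl3, Ccl4 and Ccl5, the CXCR3 ligands Cxcl9 and Cxcl10, the CXCR6 ligand Cxcl16, and Ccl22, Ccl1, Ccl20 and Xcl1, which bind CCR4, CCR8, CCR6 and XCR1. All 10 symbols were found, and 6 of them passed the filter on low counts.

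The libraries came from CD4+YFP+ cells sorted from the spleens of female C57BL/6 mice that were 8 to 11 weeks old, with 1 library for each mouse. The 3 WT mice carried Foxp3Cre, which expresses a fusion of Cre recombinase and YFP from the endogenous Foxp3 locus, and the 3 KO mice carried Foxp3Cre together with miR-142fl/fl, so that the miRNA gene was deleted in Foxp3-expressing cells and in both groups the sort relied on the same reporter. No agent was given to the mice or to the cells. The comparison asks which transcripts differ between the sorted cells of KO and WT mice. The authors report that these KO mice develop a fatal systemic autoimmune disease. They give as a caveat that its inflammation could itself change gene expression in Treg cells. Its effect and that of the loss of miR-142 cannot be told apart in this comparison. Total counts ranged from 13883069 to 24042994 per library, and a count of 3, taken as the floor of detection, stood for 0.123 to 0.227 CPM. CPM here is the count relative to the library total after scaling by the trimmed mean of M values (TMM).

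Before the ligands are described, the labels were checked. Mir142b, annotated at the deleted locus, had 9.05, 4.14 and 5.81 CPM in WT replicates 1, 2 and 3 and 0.389, 0.379 and 0.342 CPM in the KO replicates. The Treg markers Foxp3, Il2ra, Ctla4, Ikzf2, Tnfrsf18, Cd4 and Cd3e were all above 1 CPM in every WT library. Their summed level was 4816 to 5549 CPM in WT and 6761 to 7688 CPM in KO. Il2ra differed most, with 726 to 799 CPM in WT and 2258 to 3073 CPM in KO. Foxp3 and Tnfrsf18 were also higher in each KO library, and Ctla4 and Ikzf2 overlapped between the groups. Cd4 (833 to 926 CPM against 1005 to 1043 CPM in WT) and Cd3e (590 to 594 CPM against 626 to 733 CPM) were lower in each KO library. KO replicate 1 stood apart from the other 5 libraries in markers of other cell types. Its summed level of 12 monocyte and macrophage markers was 2851 CPM against 7.64 to 11.6 CPM in WT, 78.4 CPM in KO replicate 2 and 19.4 CPM in KO replicate 3, and all 12 genes were highest in it. The same library held 1014 CPM of 11 neutrophil markers (4.06 to 13.1 CPM elsewhere), 150 CPM of 7 dendritic cell markers (0.821 to 1.6 CPM elsewhere) and 290 CPM of B cell markers (8.86 to 41.1 CPM elsewhere). Every ligand was therefore read library by library, and each tested ligand was fitted with and without KO replicate 1.

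**Figure D1:**
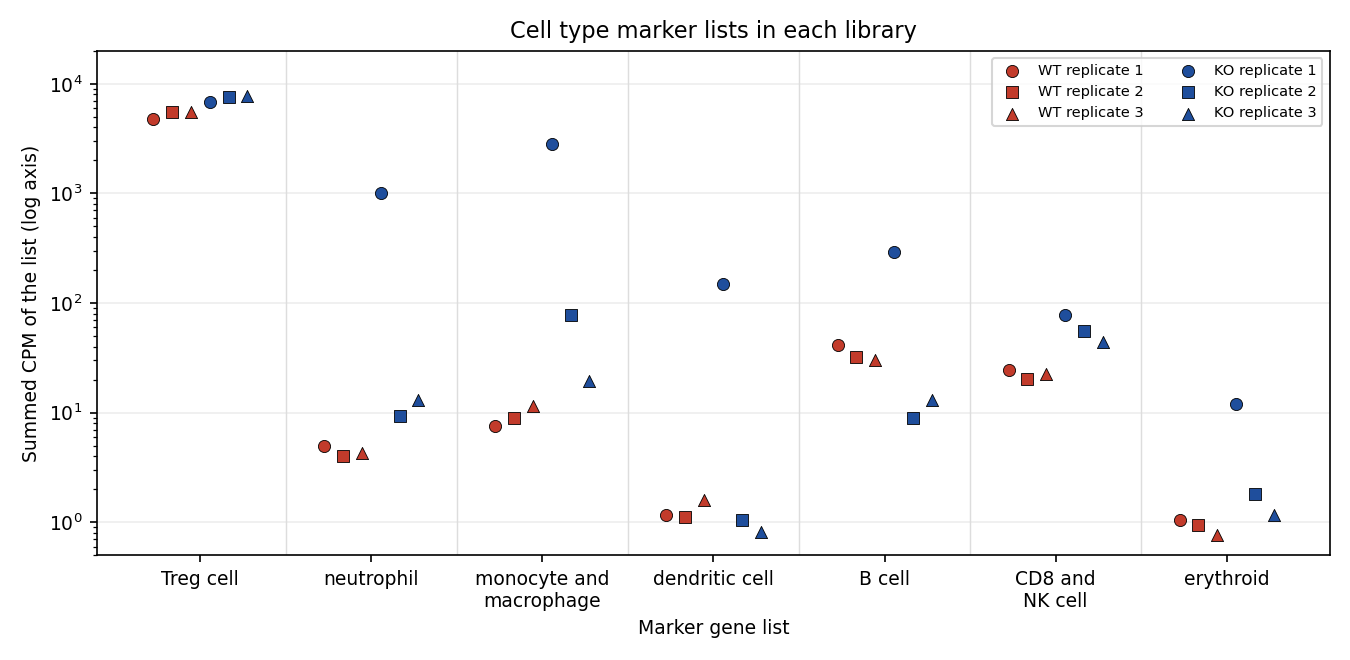
Summed CPM of 7 lists of cell type marker genes (log axis) in each of the 6 libraries, red for WT and blue for KO, with a different symbol for each replicate. The circle of KO replicate 1 lies far above the other libraries for the neutrophil, macrophage, dendritic cell and B cell lists (2851 CPM for monocytes and macrophages), while the Treg list spans 4816 to 7688 CPM over all 6 libraries.

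In the edgeR quasi-likelihood test of KO against WT, Ccl3, Ccl4 and Ccl5 rose, no ligand fell, and Ccl1, Xcl1 and Cxcl10 did not pass the threshold of a false discovery rate (FDR, Benjamini-Hochberg adjusted p) of 0.05. Cxcl9, Cxcl16, Ccl22 and Ccl20 lay under the filter, which required more than 1 CPM in at least 3 libraries. Among the 11658 genes tested, 1350 (11.6%) were called higher and 847 (7.27%) lower. Scaling by library size alone split the calls as 1064 higher and 1201 lower. Ccl3 and Ccl4 passed the filter through their 3 KO libraries alone, so these genes had to differ to be tested, and the count of calls among the 6 is given as a description.

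Read by library, the 10 ligands fell into separate patterns. For Ccl3, Ccl4, Ccl5 and Cxcl9 the lowest KO library exceeded the highest WT library, and no ligand showed the reverse. Among all tested genes, 22.2% showed the relation in this direction and 18.8% in the other. For Ccl3 and Ccl4 the filter fixed it, since only their KO libraries were above 1 CPM. Cxcl9 was not tested, so that of these ligands the share can be set beside Ccl5 alone. KO replicate 1 had the highest level of all 6 libraries in each of the 10 ligands, and exceeded the next library by more than 2 times in 9 of them, the exception being Ccl20. All 6 tested ligands were among those 9, against 3.85% of all tested genes. In Ccl1, Xcl1, Cxcl10, Cxcl16 and Ccl22 the excess of more than 2 times was in KO replicate 1, with KO replicates 2 and 3 not both above the WT libraries. The summed level of the 10 ligands was 32.2, 27.5 and 34.6 CPM in WT, 540 CPM in KO replicate 1, and 56.6 and 66.8 CPM in KO replicates 2 and 3.

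**Figure D2:**
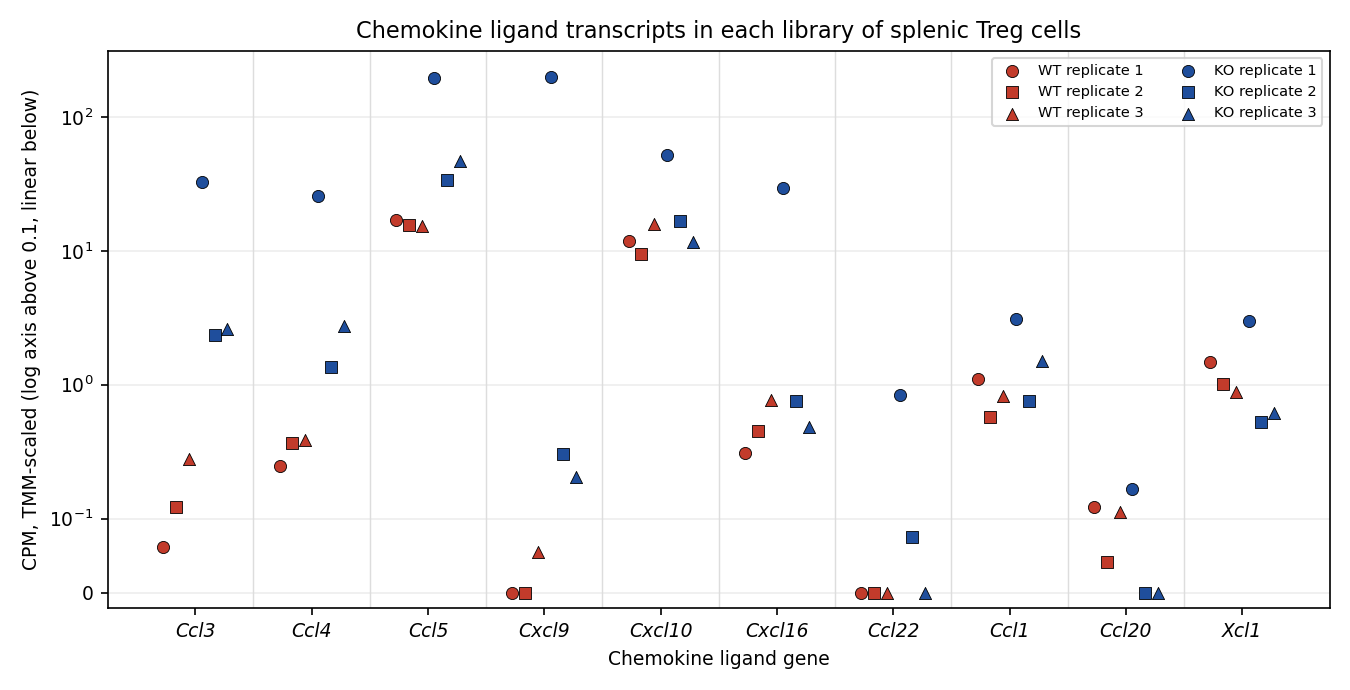
TMM-scaled CPM of the 10 chemokine ligand genes (log axis above 0.1, linear below) in each library, red for WT and blue for KO, with a different symbol for each replicate. All KO points lie above all WT points for Ccl3, Ccl4, Ccl5 and Cxcl9, though for Cxcl9 KO replicates 2 and 3 held only 4 and 3 counts. The circle of KO replicate 1 stands more than 2 times above every other point for each ligand except Ccl20. For Cxcl10, Cxcl16, Ccl22, Ccl1 and Xcl1, KO replicates 2 and 3 are not both above the WT points.

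Ccl3, Ccl4 and Ccl5 encode MIP-1alpha, MIP-1beta and RANTES, which attract T cells and monocytes. Ccl3 had 1, 3 and 5 counts in WT replicates 1, 2 and 3, or 0.0616, 0.123 and 0.277 CPM, and 585, 31 and 38 counts in the KO replicates, or 32.5, 2.35 and 2.6 CPM. It was close to the floor in WT and well above it in each KO library, with KO replicate 1 holding 12.5 times the level of the next library (95% interval 8.99 to 17.8, counting error only). WT averaged 0.154 ± 0.111 CPM and KO 12.5 ± 17.3 CPM (SD, n = 3), for a log2 fold change of 6.29 (SE 1.37, 95% interval 3.08 to 9.49, FDR 0.0212). Without KO replicate 1, over the same genes, the log2 fold change was 3.95 (SE 0.47, FDR 0.00129). In these bulk libraries, more cells that express a gene and more RNA of it in each cell cannot be told apart, which holds for every ligand here.

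Ccl4 followed a like order, with 4, 9 and 7 counts in WT (0.246, 0.369 and 0.387 CPM) and 463, 18 and 40 counts in KO (25.7, 1.36 and 2.74 CPM). The groups did not overlap, and KO replicate 1 was 9.39 times above KO replicate 3 (6.79 to 13.3). WT averaged 0.334 ± 0.0766 CPM and KO 9.93 ± 13.7 CPM (SD, n = 3), and the log2 fold change was 4.86 (SE 1.2, 95% interval 2.04 to 7.67, FDR 0.0323). It was 2.58 (SE 0.45, FDR 0.0066) without KO replicate 1. The pooled counts of KO replicates 2 and 3 were 6.12 times those of WT per library size for Ccl4 (3.63 to 10.7) and 16.2 times for Ccl3 (8.05 to 36.9).

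Ccl5 had 17.1, 15.5 and 15.3 CPM in the WT replicates, from 277 to 377 counts each. In the KO replicates it was 194, 33.8 and 47 CPM. The WT libraries lay close together and each KO library was above them, by the widest margin in KO replicate 1, which held 62.9% of all Ccl5 counts. WT averaged 15.9 ± 0.967 CPM and KO 91.6 ± 89 CPM (SD, n = 3), for a log2 fold change of 2.53 (SE 0.64, 95% interval 1.04 to 4.01, FDR 0.0338), and without KO replicate 1 the log2 fold change was 1.34 (SE 0.16, FDR 0.00141). Over the same genes without KO replicate 1, 11.5% of all tested genes were called higher. Ccl3 and Ccl4 were in that set of genes through their KO libraries, KO replicate 1 included, and with the filter applied anew without it Ccl5 was tested and called while Ccl3 and Ccl4 were under the filter.

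The calls of these 3 genes were lost when a WT library was left out, in fits that also made fewer calls over all genes. Leaving out WT replicate 1, 2 or 3 left log2 fold changes of 5.95 to 6.9 for Ccl3, 4.68 to 4.96 for Ccl4 and 2.49 to 2.55 for Ccl5, but the FDR was 0.0735 to 0.0967, 0.106 to 0.12 and 0.105 to 0.124, respectively, so that none was called. Over all genes the higher calls in those fits numbered 666, 483 and 555, against 1350 with all libraries. With robust estimation of the dispersion, an alternative chosen after seeing the data, Ccl3 alone was called (FDR 0.0494), with an FDR of 0.0648 for Ccl4 and 0.0873 for Ccl5. Markers of other cells also differed in KO replicates 2 and 3, in both directions. The B cell list was lower there, at 8.86 and 13.1 CPM against 30.1 to 41.1 CPM in WT. The dendritic cell list was at 1.06 and 0.821 CPM, against 1.11 to 1.6 CPM in WT. Xcr1 alone made up 0.656 to 1.11 CPM of the WT sums, and 0.303 and 0.411 CPM in KO replicates 2 and 3. Not all genes of the list fell, though their values were near the floor. Itgax was at 0.227 and 0 CPM, against at most 0.111 CPM in WT. Flt3 was at 0 and 0.274 CPM, against at most 0.041 CPM in WT. In KO replicate 2 the macrophage genes C1qa and Csf1r were at 6.51 and 12.6 CPM, against at most 0.387 and 0.83 CPM in WT. In KO replicate 3 they were at 0.274 and 0.89 CPM, whereas Lyz2 of the same list was at 1.14 CPM in KO replicate 2 and 2.19 CPM in KO replicate 3, against at most 0.41 CPM in WT. Ccl3, Ccl4 and Ccl5 were each higher in KO replicate 3 than in KO replicate 2, an order that was not tested. For Ccl3 the margin was small, with 38 against 31 counts (2.6 against 2.35 CPM). The macrophage list as a whole was at 78.4 and 19.4 CPM in these libraries, above the WT range of 7.64 to 11.6 CPM. Vcam1 made up 35.1 and 11.2 CPM of these sums (1.6 to 2.28 CPM in WT). Cd68 of the same list was below WT, at 4.09 and 3.08 CPM against 4.31 to 6.97 CPM. Neutrophil markers were at 9.39 and 13.1 CPM (4.06 to 4.93 CPM in WT), of which Mmp9 made up 8.93 and 8.01 CPM. S100a8 and S100a9 were at 0 in KO replicate 2 and at 0.89 and 1.23 CPM in KO replicate 3. The summed level of 8 CD8 T cell and NK cell markers, cells known for making Ccl3, Ccl4 and Ccl5, was 20.1 to 24.3 CPM in WT and 77.8, 55.7 and 44.5 CPM in KO. Of these markers, Eomes, a transcription factor also found in CD4+ T cells, had 4.35 to 6.69 CPM in WT and 39.1, 42 and 29.8 CPM in KO. Cd8a had 0.185 to 0.553 CPM in WT and 19, 1.97 and 0.684 CPM in KO. Cd8b1 had 11.5 to 13.8 CPM in WT and 17.1, 11.4 and 13.1 CPM in KO, and Klrb1c was lower in KO, with 2.38 to 3.94 CPM in WT and 1.39, 0.303 and 0.821 CPM in KO. The NK cell genes Klra4 and Klra8 were at 0 in all 6 libraries, and Ncr1 was at no more than 0.111 CPM. The part of these marker differences in the rise of the 3 ligands was not tested.

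**Figure D3:**
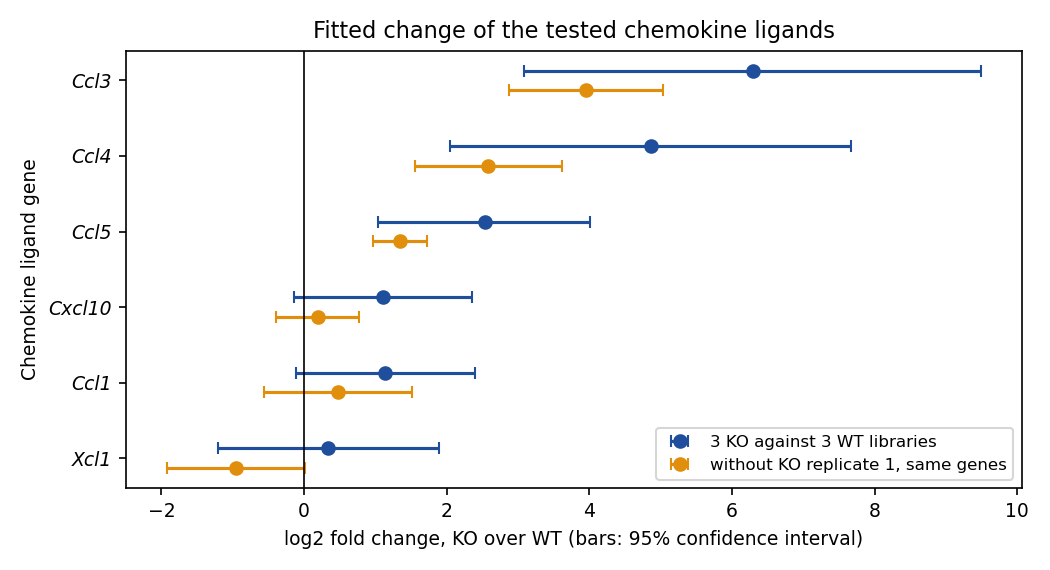
Log2 fold change of the 6 tested chemokine ligands, KO over WT, from edgeR's quasi-likelihood fit, with 95% confidence intervals, for all 6 libraries (blue) and without KO replicate 1 (orange). The intervals of Ccl3, Ccl4 and Ccl5 lie above 0 in both fits, those of Cxcl10 and Ccl1 cover 0 in both, and the estimate for Xcl1 goes from 0.34 to -0.95.

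Cxcl9 (MIG) and Cxcl10 (IP-10) are interferon-induced ligands of CXCR3, the receptor of Th1-type effector cells. Their genes are neighbors on chromosome 5, with 18.6 kb between them, yet their levels in these libraries were unlike. Cxcl9 had 0, 0 and 1 counts in the WT replicates and 3602, 4 and 3 counts in the KO replicates. KO replicate 1 held 99.8% of all its counts, at 200 CPM, which made Cxcl9 the most abundant ligand by CPM in that library. The ratio of KO replicate 1 to the next library was 660 (258 to 2424, counting error only). KO replicates 2 and 3 lay above every WT library, at 0.303 and 0.205 CPM, a difference resting on 7 counts against 1 (ratio 14.8, interval 1.9 to 666). In a fit without the filter Cxcl9 was not called, either with KO replicate 1 (log2 fold change 11.4, SE 3.43, FDR 0.0768) or without it (3.38, SE 1.28, FDR 0.103).

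Cxcl10 was the other ligand with a clear level in WT, at 11.8, 9.51 and 15.9 CPM, and it had 51.7, 16.7 and 11.6 CPM in the KO replicates. KO replicate 1 was 3.1 times above KO replicate 2 (2.68 to 3.61), KO replicate 2 was slightly above the WT libraries and KO replicate 3 was within their range. The log2 fold change of 1.11 (SE 0.53, 95% interval -0.14 to 2.36, FDR 0.188) did not pass the threshold. It was 0.19 (SE 0.25, 95% interval -0.39 to 0.77, FDR 0.652) without KO replicate 1. These values leave a change of up to 0.77 on the log2 scale within the interval for KO replicates 2 and 3.

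The stretches of 250 bases upstream of the start sites of Cxcl9, Cxcl10 and Ccl3 are shown because the first pair are neighbors with different levels and Ccl3 showed the largest called change of the 10 ligands; they are RefSeq sequences of GRCm38.p6, written 5′ to 3′ on the gene's strand, with the motif matches in capitals.
Cxcl9 (chr5:92328080-92328329, minus strand): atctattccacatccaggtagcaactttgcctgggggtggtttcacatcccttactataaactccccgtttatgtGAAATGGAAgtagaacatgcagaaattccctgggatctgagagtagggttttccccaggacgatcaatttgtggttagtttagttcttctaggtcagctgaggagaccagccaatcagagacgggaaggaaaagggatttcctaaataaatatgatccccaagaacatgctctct
Cxcl10 (chr5:92348890-92349139, minus strand): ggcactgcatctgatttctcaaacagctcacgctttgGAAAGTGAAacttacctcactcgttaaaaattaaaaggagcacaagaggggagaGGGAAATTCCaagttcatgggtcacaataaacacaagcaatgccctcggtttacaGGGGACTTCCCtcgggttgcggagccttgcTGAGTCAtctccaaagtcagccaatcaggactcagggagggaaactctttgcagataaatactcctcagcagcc
Ccl3 (chr11:83649379-83649628, minus strand): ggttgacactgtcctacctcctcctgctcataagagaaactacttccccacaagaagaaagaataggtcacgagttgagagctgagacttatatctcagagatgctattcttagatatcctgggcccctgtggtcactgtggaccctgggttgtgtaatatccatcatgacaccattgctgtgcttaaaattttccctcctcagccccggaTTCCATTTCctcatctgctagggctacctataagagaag
The motifs searched on both strands were AP-1 (TGANTCA), the core of the interferon-stimulated response element (GAAANNGAA), the gamma-activated site (TTCNNNGAA) and the kappaB site by its consensus, which occur in 6.75%, 7.13%, 7.02% and 7.25% of 32851 mouse promoter stretches of the same length. RefSeq entries were found for 7 of the 10 ligands, the others being Ccl4, Ccl5 and Cxcl16. In Cxcl9 the capitals mark an interferon-stimulated response element core 175 to 167 bases before the start. In Cxcl10 they mark, in order, the same core at 213 to 205 bases, kappaB matches at 159 to 150 and 104 to 94 bases, and AP-1 at 74 to 68 bases. In Ccl3 they mark the same response element core on the opposite strand at 39 to 31 bases. Among the other ligands, Ccl1 held a response element core and a kappaB match, Ccl20 held a kappaB match, and these letters were not in the stretches of Ccl22 and Xcl1. A match describes the letters and does not show a bound site.

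Cxcl16, a ligand of CXCR6 that is made as a membrane-bound form and shed by proteases, had 0.308, 0.451 and 0.774 CPM in the WT replicates and 29.4, 0.757 and 0.479 CPM in the KO replicates. KO replicates 2 and 3 were inside the WT range, and KO replicate 1 was 38 times above the highest of the other libraries (22.4 to 70, counting error only). In the fit without the filter, the log2 fold change was 4.28 (FDR 0.117) with KO replicate 1 and 0.22 (SE 0.59, FDR 0.834) without it. Of its annotated exon bases, 18.3% overlap Zmynd15 on the opposite strand, and since reads were counted without regard to strand, the reads of the 2 genes cannot be told apart there. The like overlap was 18.7% for Xcl1 with Gm20743 and 5.91% for Cxcl10 with Art3.

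Ccl22, a ligand of CCR4 that dendritic cells and macrophages make in quantity, had 0 counts in each WT library, which allows up to 0.123 to 0.185 CPM. It had 15, 1 and 0 counts in the KO replicates, so that only KO replicate 1, at 0.833 CPM, was over the floor. The ratio of KO replicate 1 to KO replicate 2 was 11 (1.69 to 463). Ccl20, the ligand of CCR6, had 2, 1 and 2 counts in WT and 3, 0 and 0 counts in KO, at or below the floor in every library, so that a change was not detectable at this depth. The excess of Cxcl9, Cxcl16 and Ccl22 in KO replicate 1 moved with its markers of macrophages (2851 CPM), dendritic cells (150 CPM), neutrophils (1014 CPM) and B cells (290 CPM), and the part of those cells in it was not tested.

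Ccl1, a CCR8 ligand made by activated T cells, had 1.11, 0.574 and 0.83 CPM in WT and 3.11, 0.757 and 1.51 CPM in KO, from 10 to 56 counts in each library. KO replicates 1 and 3 lay above the WT libraries and KO replicate 2 was within their range. Its log2 fold change of 1.14 (SE 0.53, 95% interval -0.12 to 2.39, FDR 0.179) did not pass the threshold, and it was 0.48 (SE 0.45, FDR 0.505) without KO replicate 1.

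Xcl1, or lymphotactin, draws cross-presenting dendritic cells through XCR1. It had 1.48, 1.02 and 0.885 CPM in the WT replicates and 3, 0.53 and 0.616 CPM in the KO replicates. KO replicate 1 was above every WT library and KO replicates 2 and 3 were both below every WT library, so the KO group spanned the WT group on either side. The log2 fold change was 0.34 (SE 0.66, 95% interval -1.21 to 1.89, FDR 0.749) with all libraries. Without KO replicate 1 it was -0.95 (SE 0.42, 95% interval -1.92 to 0.01, FDR 0.154), a reversed direction that did not pass the threshold. The pooled counts of KO replicates 2 and 3 were 16, for a ratio to WT of 0.519 (0.28 to 0.908, counting error only).

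Levels were also divided by kb of exon, joined over all transcripts of the gene in GENCODE vM21. This length can exceed that of the transcript expressed. For Cxcl10 it was 2252 bases, the full span of the gene, and for Ccl1 2369 bases. Their values may thus be too low, and the order holds for this annotation only. In WT the order was Ccl5 with 16.6 ± 1.04 CPM per kb (SD, n = 3), Cxcl10 with 5.51 ± 1.44, Xcl1 with 2.16 ± 0.597, Ccl4 with 0.506 ± 0.116 and Ccl1 with 0.354 ± 0.114. Below them were Ccl3 with 0.201 ± 0.145, Cxcl16 with 0.169 ± 0.0789, Ccl20 with 0.0645 ± 0.0312 and Cxcl9 with 0.0061 ± 0.0106, ahead of Ccl22 at 0. The WT ranges of neighbors from Ccl5 down to Ccl4 did not overlap, and those of Ccl4, Ccl1, Ccl3 and Cxcl16 overlapped from each to the next, as did those of Cxcl9 and Ccl22. In KO the mean level per kb was highest for Ccl5 (95.4 ± 92.6), then Cxcl9 (22.2 ± 38.2), Ccl3 (16.3 ± 22.6), Ccl4 (15 ± 20.7) and Cxcl10 (11.9 ± 9.72), and every pair of neighbors in that order overlapped. By CPM, Ccl5 made up 53%, 56.1% and 44.3% of the summed ligand level in the WT replicates and 35.9%, 59.7% and 70.4% in the KO replicates. Cxcl9 made up 37% in KO replicate 1 and at most 0.535% in any other library.

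Because the deleted gene makes a miRNA, the mature sequences of RefSeq (GRCm38.p6) are given with the seed, bases 2 to 8, in capitals.
mmu-miR-142a-3p (chr11:87756903-87756925, plus strand): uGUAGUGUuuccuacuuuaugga
mmu-miR-142a-5p (chr11:87756867-87756887, plus strand): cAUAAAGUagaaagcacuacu
Seed matches searched in the longest annotated 3′ UTR of each gene for the 3p arm the letters ACACTAC (opposite its bases 2 to 8), then the letters CACTACA (opposite bases 2 to 7, with a final A) and AACACTA (opposite bases 3 to 9), and for the 5p arm the letters ACTTTAT (opposite its bases 2 to 8) and CTTTATA (opposite bases 2 to 7, with a final A). The search ran on the annotated strand of GENCODE vM21. Of 11127 tested genes with a 3′ UTR, 34.5% held at least 1 of these, with shares of 7.0%, 8.69% and 10.2% for the 3p letters and 15.9% and 15.2% for the 5p letters. None of the 10 ligands held one, in 3′ UTRs of 141 bases (Xcl1) to 2452 bases (Cxcl9), with 409 bases in Ccl3, 302 in Ccl4 and 199 in Ccl5. This says only that these letters are not in those windows. On chromosome 11, which also carries miR-142, lie Ccl5 (chr11:83525778-83530518), Ccl3 (chr11:83647844-83649355) and Ccl4 (chr11:83662584-83664683), 4.09 to 4.23 Mb from it, with Ccl1 at 5.45 Mb and Cxcl16 at 17.3 Mb. The RefSeq record of Ccl4 begins at 83648624 and so overlaps Ccl3 on the opposite strand, while the GENCODE genes lie 13.2 kb apart, and the gene annotation used for counting is not given in the sources used here.

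Receptors and proteases of these ligands were counted from a list of 12 genes, of which 10 were tested, 1 was called higher, 1 lower and 8 not called, against 11.6% higher and 7.27% lower over all tested genes, so that either share of the list was near that of all genes. Ccr4, the receptor of Ccl22, fell, with 86.2, 69.2 and 68.1 CPM in WT and 38.6, 27.9 and 43.9 CPM in KO (log2 fold change -1.02, SE 0.18, FDR 0.0108, and -1.05 with FDR 0.0103 without KO replicate 1). Dpp4, a protease that trims the amino terminus of several chemokines, rose by a small amount (log2 fold change 0.35, SE 0.1, FDR 0.049, and 0.39 with FDR 0.04 without KO replicate 1 over the same genes), a call that was lost when any 1 library was left out and the filter applied anew (FDR 0.0551 to 0.176). Ccr1, a receptor of Ccl3 and Ccl5, was under the filter, with 10.5 CPM in KO replicate 1 and 0.308 to 0.615 CPM in the other 5 libraries. Ccr3, which also binds Ccl5, had a log2 fold change of 0.42 (FDR 0.297). The other receptors tested were not called, with log2 fold changes of 0.18 for Cxcr3, -0.13 for Cxcr6, 0.33 for Ccr8, -0.27 for Ccr6 and -0.52 for Xcr1.

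**Figure D4:**
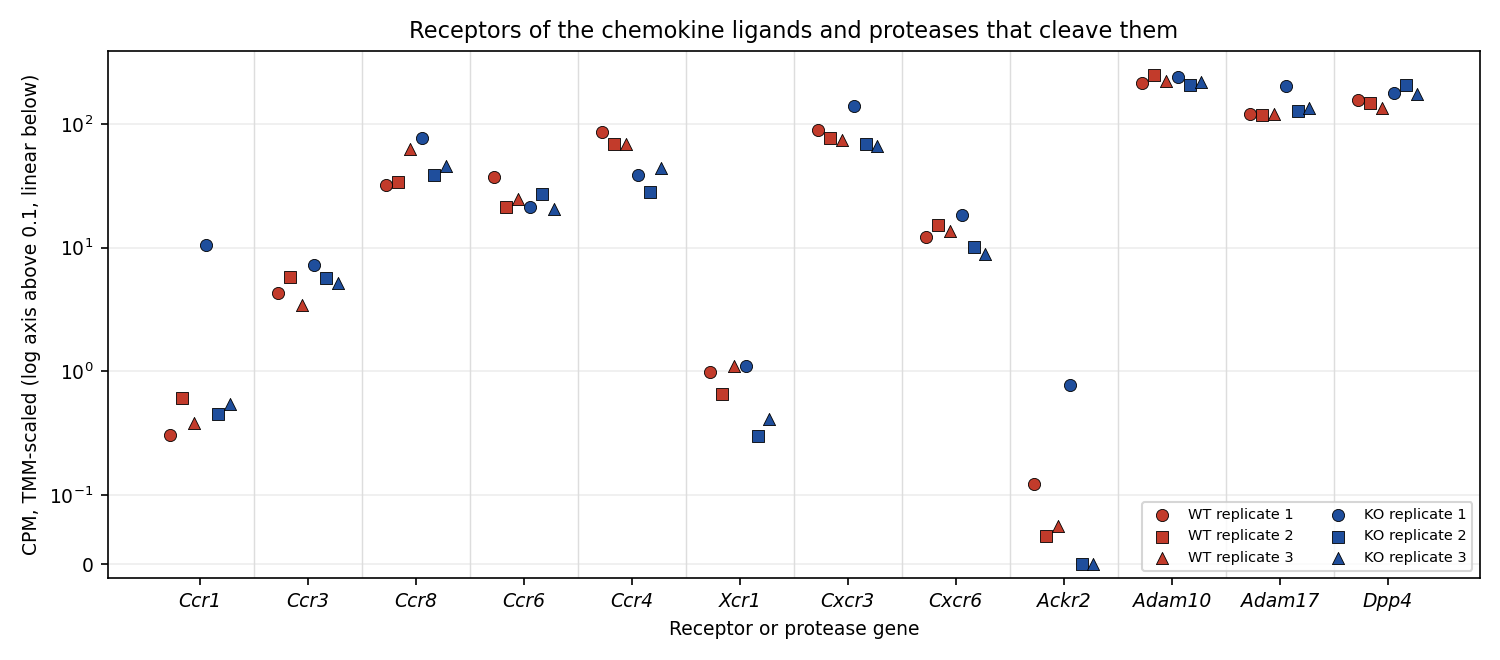
TMM-scaled CPM of 12 receptor and protease genes (log axis above 0.1, linear below) in each library, red for WT and blue for KO, with a different symbol for each replicate. All KO points lie below all WT points for Ccr4 (27.9 to 43.9 CPM against 68.1 to 86.2 CPM), and for Ccr1 the circle of KO replicate 1 stands alone at 10.5 CPM.

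Beyond the 10 members, 31 further chemokine ligand genes were listed. Of these, 9 were at 0 in all libraries, 29 were under the filter, and the 2 tested genes Ccl25 and Cxcl2 were not called by edgeR, nor were any at an unadjusted p under 0.05. Ccl2, Ccl7, Ccl8 and Ccl12, which attract monocytes through CCR2 and related receptors, had 32, 6, 71 and 17 counts in KO replicate 1 and 0 in each of the other 5 libraries. Ccl6 had 392 counts in KO replicate 1 and 1 count over the other 5 libraries, so that, like Cxcl9 and Ccl22, these ligands were seen almost entirely in that library.

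The genes with the pattern most like each tested ligand were found by the root mean square (RMS) difference of log2 CPM over the 6 libraries. Each gene was centered on its mean, and 0.5 was added to each CPM before the log. This draws values below 0.5 CPM closer together, as in the WT libraries for Ccl3 and Mef2c. For Ccl3 they were Mef2c (RMS 0.158), a transcription factor, and Cd74 (0.196), the invariant chain of MHC class II. For Ccl4 they were the tyrosine kinase Syk (0.237) and H2-DMb1 (0.278), which edits the peptides of MHC class II. For Ccl5 they were Slc15a3 (0.14), a peptide and histidine transporter of lysosomes, and Hip1 (0.149). Cd74 had 50.4, 44.7 and 51.5 CPM in WT and 2097, 194 and 273 CPM in KO, and so shared with Ccl3, Ccl4 and Ccl5 a level above WT in each KO library and the highest level in KO replicate 1. The nearest genes were Tctex1d2 (0.0878) and Iqsec2 (0.126) for Ccl1, Myo1f (0.101) and Prr5l (0.107) for Xcl1, and Frmd4b (0.143) and Lat2 (0.151) for Cxcl10. Myo1f was lower in KO replicates 2 and 3 (60.3 and 70.8 CPM) than in the WT libraries (91.2 to 117 CPM) and highest in KO replicate 1 (189 CPM), the same order as Xcl1.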

How the data were processed

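Splenic CD4+YFP+ Treg cells of 3 WT and 3 KO mice were profiled by RNA-seq. According to their methods, the authors aligned single-end reads of 51 bases to mm10 with HISAT and counted them, unstranded, with featureCounts. Their deposited table gives raw, unscaled counts of 24421 genes. The 11658 genes above 1 CPM in 3 or more libraries were tested, KO against WT, in edgeR (version 4.0.16, R 4.3.3) with TMM scaling and the quasi-likelihood F test. The p-values were adjusted over all tested genes (Benjamini-Hochberg, threshold 0.05). The SE of a log2 fold change was taken from the F statistic. Ratios of single libraries carry exact 95% binomial intervals, which cover counting error only. The procedure was tested on simulated data.

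Named were all 10 ligands, called genes and receptors from the lists, and the 2 genes nearest to each tested ligand. The values of some single genes of the lists were left out. Single genes outside this rule (markers, Ccl2, Ccl6, Ccl7, Ccl8, Ccl12, Ppbp, Pf4 and Cx3cl1) were chosen after their values were seen. The members and lists were chosen with earlier results of these data known. Alternatives were other scalings, DESeq2 (version 1.42.0), other edgeR tests, no filter, a replicate block and leaving out each library. Same-numbered WT and KO libraries correlated in their deviations at 0.08, -0.006 and -0.195, so the numbers were not used as pairs.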

Additional observations from a re-analysis of the deposited data

How the results depend on the processing

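Leaving out 1 library at a time, with the filter applied anew, gave 0 to 1 ligands called instead of 3. It was 0 without each WT replicate in turn and Ccl5 alone without each KO replicate in turn, since Ccl3 and Ccl4 then fell under the filter. Without WT replicates 1, 2 and 3 the higher calls over all genes also fell, from 1350 to 666, 483 and 555. Receptor and protease calls were 1 instead of 2, Ccr4 alone, without any single library, with library size alone, the likelihood ratio test, the exact test or no filter (with or without KO replicate 1), and with the replicate block. Robust estimation called 1 ligand. Without the filter 1 further ligand, Ppbp, was called, and also 1 without both the filter and KO replicate 1. Xcl1, at 0.34 in the reported fit, reversed to -0.95 without KO replicate 1 over the same genes, to -0.99 without the filter and KO replicate 1, and to -0.01 with the replicate number as a block. The block called 3 ligands and 1061 genes higher and 545 lower over all tested genes, and the WT and KO libraries shared no more than a number. DESeq2 called Ccl4 (adjusted p 0.000751) and Ccl5 (0.00667) and gave no adjusted p for Ccl3. Ccl20 and Ccl22 were limited by depth. The cause of these shifts was not tested, apart from the filter for Ccl3 and Ccl4.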

Other observations

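Ppbp, a platelet chemokine, had 0, 1 and 0 counts in WT and 23, 3 and 29 counts in the KO replicates, and was called without the filter in edgeR (log2 fold change 5.61, SE 1.12, FDR 0.0226) and also without KO replicate 1 (5.53, SE 1.16, FDR 0.00643). Pf4, likewise of platelets, had no counts in WT and 9, 0 and 12 counts in the KO replicates. Unlike the 10 ligands described above, both had their highest level in KO replicate 3 rather than KO replicate 1. Cx3cl1, the membrane-bound ligand of CX3CR1, had 6, 5 and 11 counts in WT and 1, 0 and 1 counts in KO, with the groups apart but an FDR of 0.0698 in the fit without the filter.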
